A study of Drosophila melanogaster with 3 samples.

Results

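The 590 regions described here are the intronic peaks of Runt-GFP that lay close to, but not at, a gene start. They are 19.2% of the 3065 peaks in the authors' IDR list, where IDR (irreproducible discovery rate) is a measure of how well peaks recur between replicates. A peak was a member when its summit lay inside a protein-coding gene of the Ensembl dm6 models, in no exon, and more than 500 and at most 3000 bases from the nearest protein-coding transcript start. Within the IDR list the choice used position only. The list itself was derived by the authors from these same replicates. At member positions it holds as many peaks as the strongest 3065 called on pooled replicates, so the members' signal was bounded from below. Matching in the replicates was favoured by that choice but not required of each member. Chromatin of whole Drosophila melanogaster embryos aged 0 to 16 hours was immunoprecipitated with an anti-GFP antibody and sequenced. The embryos came from a transgenic line that stably expresses Runt with GFP at its C-terminal end. The 3 biological replicates formed the only group, and their peaks were called against 1 control that they shared, per the readme files. Each replicate list and the list called on pooled replicates held 30000 peaks, and the read depth is unknown. Peaks of whole embryos come from many tissues, so strong binding in few cells and weak binding in many cannot be told apart.

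Runt belongs to the RUNX family of transcription factors, which bind a short GC-containing recognition sequence through the Runt domain and activate or repress genes together with partner proteins. In fly embryos Runt is best known as a pair-rule factor of segmentation, and has a part in sex determination and in nervous system development. Introns of developmental genes, first introns above all, often hold enhancers, and an intron of a long transcript can also be the upstream region of a shorter transcript of the same gene.

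The 3 strongest members outside the chromosome arm left out of sequence printing are given first. Each line holds the 101 bases around the summit on the plus strand of dm6, from the RefSeq Release 6 sequence, in lower case. None of the 3 holds the RUNX consensus, and all are rich in A and T, with GC contents of 22.8%, 28.7% and 32.7%.
CG11050 (chr2L:6612665-6612765): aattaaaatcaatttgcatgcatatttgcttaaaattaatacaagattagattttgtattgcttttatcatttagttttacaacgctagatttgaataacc
ush (chr2L:481039-481139): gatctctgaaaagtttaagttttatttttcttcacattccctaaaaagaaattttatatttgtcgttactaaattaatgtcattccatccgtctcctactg
Trl (chr3L:14759460-14759560): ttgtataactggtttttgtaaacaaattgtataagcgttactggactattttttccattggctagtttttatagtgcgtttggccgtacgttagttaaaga

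The RUNX consensus used here is TGNGGTN with C or T at each N, searched on either strand. The following lines show the 8 strongest members that carry it, again outside that arm and 101 bases each on the plus strand, because they are the members in which signal and recognition sequence occur together. Capitals mark the match, which reads as its reverse complement where the site is on the minus strand.
beat-VII (chr3R:26655708-26655808): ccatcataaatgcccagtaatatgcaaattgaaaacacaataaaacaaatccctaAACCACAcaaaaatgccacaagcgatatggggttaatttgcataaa
PAN3 (chr3L:3080181-3080281): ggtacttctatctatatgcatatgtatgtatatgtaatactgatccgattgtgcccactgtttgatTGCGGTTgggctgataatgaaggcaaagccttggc
Tpr2 (chr2L:16500572-16500672): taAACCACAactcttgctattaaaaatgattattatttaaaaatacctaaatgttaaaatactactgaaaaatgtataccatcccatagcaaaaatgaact
bru2 (chr2L:12348686-12348786): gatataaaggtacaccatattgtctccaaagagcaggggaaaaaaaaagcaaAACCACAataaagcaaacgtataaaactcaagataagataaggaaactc
bun (chr2L:12543392-12543492): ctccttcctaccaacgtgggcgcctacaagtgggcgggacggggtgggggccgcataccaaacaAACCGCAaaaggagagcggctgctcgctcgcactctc
CG9663 (chr2L:3302348-3302448): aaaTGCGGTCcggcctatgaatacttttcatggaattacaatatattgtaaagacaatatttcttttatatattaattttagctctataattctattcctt
Agpat2 (chr2L:8463277-8463377): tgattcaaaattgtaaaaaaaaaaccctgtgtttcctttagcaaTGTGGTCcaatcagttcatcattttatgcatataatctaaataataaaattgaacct
Tlk (chrX:3741109-3741209): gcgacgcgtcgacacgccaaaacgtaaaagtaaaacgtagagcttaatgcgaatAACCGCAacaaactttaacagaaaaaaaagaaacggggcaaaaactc

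The strongest members were among the strongest Runt-GFP peaks of the genome, and they ranked high in each replicate. They were picked by the signal of these same replicates pooled, so high ranks and matching in single replicates were largely set by the choice. Peaks were ranked within each list by the authors' signal value, the scale of which the sources used here do not state. Of the 20 strongest peaks in the IDR list 4 were members, and of the 100 strongest 18 were, close to the members' share of 19.2% in the whole list. The first-ranked IDR peak of all (signal 1649) was the member in CG11050, and it ranked 3, 1 and 3 in replicates 1, 2 and 3. Its summit lies 1028 bases downstream of the gene's nearest start, in an intron of only 140 bases, so the peak interval reaches into exons, as do 36 of the 590 intervals. The member in ush, the gene of U-shaped, a zinc-finger protein that binds GATA factors, ranked 5, 7 and 1. Its nearest start, 1401 bases away, belongs to another gene, cbt, which encodes the zinc-finger factor Cabut. The member in Trl, the gene of GAGA factor, ranked 8, 15 and 15.

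The next members in rank lay in genes of signalling and chromatin proteins as well as in genes with no name beyond a number. The member in Lk6, a protein kinase gene, ranked 15, 29 and 20 in replicates 1, 2 and 3, and that in CG12769 ranked 30, 20 and 28. A member inside both HmgZ and HmgD, genes of small DNA-bending chromatin proteins, ranked 62, 26 and 19. The one in Tlk, which encodes Tousled-like kinase, ranked 35, 37 and 52. A member in NFAT, the gene of a Rel-domain transcription factor, ranked 50, 44 and 45, so its ranks differed little between replicates. The remaining strongest members were in CG32772, Hyls1 and chif, CG31635, CG9663, CG9837, Reph, CG4496, simj, for, wde, Raf and beat-VII. Among these, chif encodes a regulator of DNA replication, for a cGMP-dependent protein kinase, wde a partner of a histone H3 lysine methyltransferase and Raf the kinase of the Ras pathway. Across the strongest 20 members, ranks in single replicates ran from 1 to 206, and the lowest of them was that of simj in replicate 1, which ranked 69 and 40 in the others. All 20 were matched in all 3 strongest replicate lists, 16 were in first introns, and 5 had an IDR summit within 500 bases of their nearest start.

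**Figure D1:**
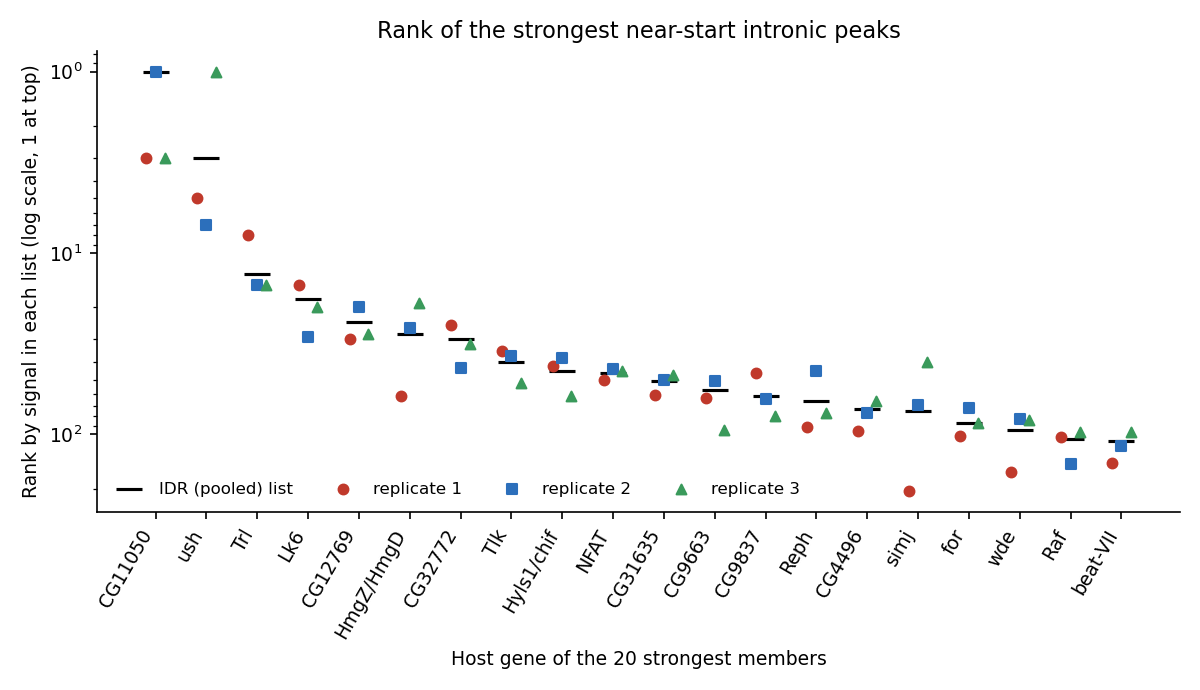
Rank by signal (log scale, 1 at the top) of the 20 strongest members in the IDR list, whose order is that of the pooled peaks, and in each replicate's own list. Horizontal bars are the IDR list and symbols are replicates 1 to 3. All symbols lie between ranks 1 and 206. On the log scale the widest scatter is that of ush (ranks 5, 7 and 1), and in plain ranks that of simj (206, 69 and 40).

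The IDR list was derived from the same 3 replicates, so the recurrence of its members there is largely set by that choice and is given as a description. Over all 590 members the signal ran from 131 to 1649 with a median of 197. Of these, 587 had an overlapping peak in every replicate's list of 30000. When each replicate was limited to as many of its strongest peaks as the IDR list holds, 79.5%, 83.1% and 87.3% of members were matched in replicates 1, 2 and 3, a mean of 83.3% ± 3.90 (SD, n = 3). In these shorter lists 369 members (62.5%) were matched in all 3, 153 in exactly 2, 61 in 1 and 7 in none. The matched 369 had a median signal of 254, and the other 221 one of 152. Median ranks of the members were 1505, 1550 and 1402 in the 3 full lists, with upper quartiles of 2721, 2583 and 2280. Summits of overlapping replicate peaks lay a median of 28, 17 and 14 bases from the IDR summit. As a description across members, which share their libraries and control, Spearman's rho of the signal was 0.655 for replicates 1 and 2, 0.666 for 1 and 3 and 0.722 for 2 and 3. The members not found in a replicate list were 1 of those in NFAT and 1 in wun, both missing in replicate 2, and 1 in bowl, missing in replicate 1.

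Intronic peaks were denser near gene starts than farther in. The eligible introns, meaning all intronic bases within the same distances of a start, came to 15.2 Mb and held 38.7 members per Mb. Intronic sequence over 3000 bases away came to 37.4 Mb and held 616 IDR peaks, or 16.5 per Mb. The density ratio was 2.35 (95% interval 2.10 to 2.64, p = 4.23e-48 in a two-sided exact binomial test over peaks). The replicates' own strongest peaks gave 2.56, 2.46 and 2.46, a mean of 2.49 ± 0.0571 (SD, n = 3).

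The density fell mainly within the first 2000 bases. It was 58.1 per Mb from over 500 to 750 bases, 47.1 up to 1000, 43.9 up to 1500 and 34.1 up to 2000. From there it changed little, with 26.4 and 26.6 per Mb up to 2500 and 3000 bases, 28.5 up to 4000 and 26.4 up to 6000, whose 95% intervals overlap. It was lower again from there to 10000 bases (20.3) and beyond 10000 (9.40). The ratio above therefore sets the raised density of the first 2000 bases and the low density of distant introns together. Within 500 bases of a start, where peaks count as promoter peaks, intronic density was 126 and 76.6 per Mb, and there it was higher upstream of the nearest start (166 and 137) than downstream (49.9 and 32.1). Among members this asymmetry was small, with 69.4 per Mb upstream and 51.8 downstream at distances up to 750 bases, whose intervals overlap.

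The share of pooled peaks that were in the IDR list fell with distance too. In each position class the strongest 3065 pooled peaks by signal numbered the same as the IDR peaks. This share is therefore one above a cut on pooled signal, not a rate of passing a separate test of recurrence. Of the 30000 pooled peaks 10.2% were in the IDR list. Among pooled peaks at member positions the share was 11.0% (590 of 5383), compared with 7.20% in far introns, 17.8% within 500 bases of a start and 6.95% outside protein-coding genes. By distance it was 15.4% up to 750 bases and 8.20% between 2500 and 3000, while pooled peaks themselves went from 378 to 325 per Mb. Mappability and chromatin openness were not measured here, and their part in the fall was not tested.

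**Figure D2:**
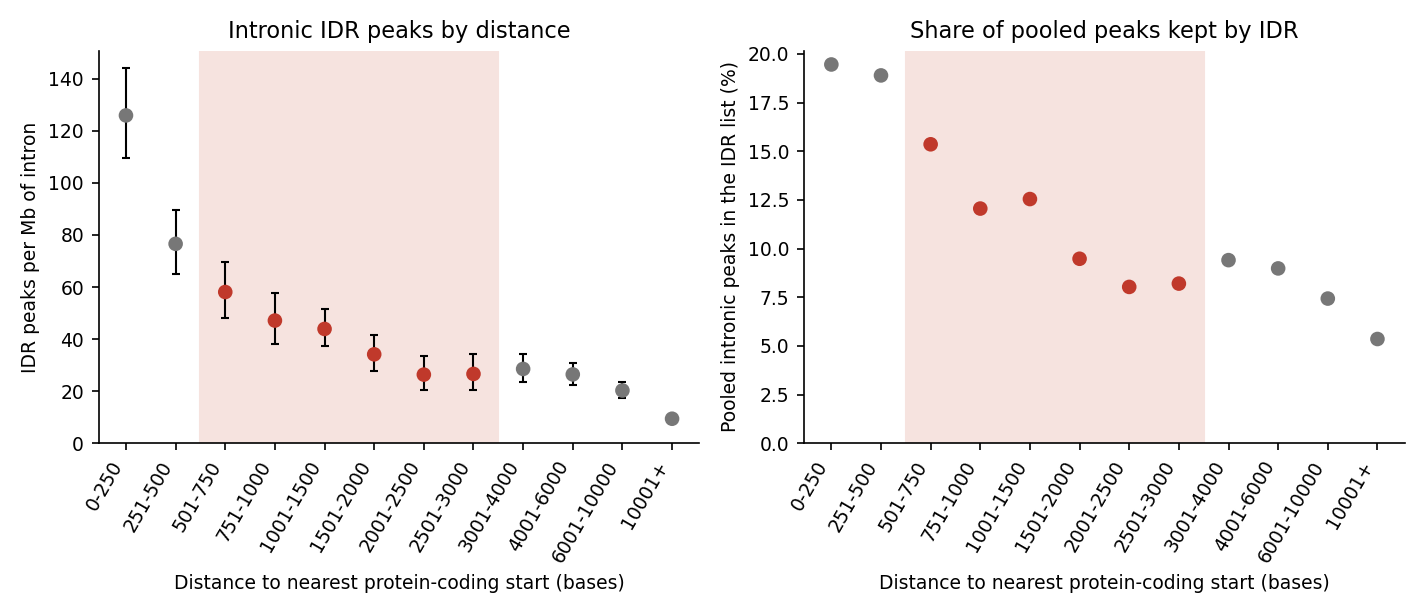
Left, intronic IDR peaks per Mb of intron against distance to the nearest protein-coding start, with 95% exact Poisson intervals. Right, the share (%) of pooled intronic peaks that are in the IDR list. Shading and red mark the members' range, where density falls from 58.1 to 26.6 per Mb.

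Members lay in first introns more often than their eligible sequence did. First introns held 482 of 590 members (81.7%), compared with 62.9% of eligible bases (two-sided exact binomial p = 3.94e-23 over peaks). The replicates' own lists gave 81.2%, 82.2% and 81.5%. In 3 ranges of distance, up to 1000, over 1000 to 2000 and over 2000 to 3000 bases, a split chosen after seeing the data, members in first introns were 81.4%, 86.5% and 72.9%. The corresponding shares of eligible bases were 71.2%, 63.1% and 55.9%. All pooled peaks at these positions, members included, had 82.7%, 77.0% and 70.3%, and in the nearest and the farthest range these values lie inside the members' intervals (75.5 to 86.4 and 64.3 to 80.3). Only in the middle range was the pooled share below the members' interval of 81.6 to 90.4.

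Members lay on both sides of their nearest start. There were 387 (65.6%) downstream of it, compared with 67.6% of eligible bases (exact binomial p = 0.312). Without replicate 3 the difference was -4.81 percentage points and passed (exact p = 0.0430). Of all members 346 were downstream and in a first intron, 136 upstream of the nearest start but in the first intron of a longer transcript, 67 upstream in a later intron and 41 downstream in a later one. The nearest start belonged to the host gene for 538 members (91.2%) and to another gene, nested or neighbouring, for 52. An IDR summit stood within 500 bases of that nearest start for 126 members (21.4%), and at any start of a host for 241 (40.8%). Another IDR summit within 1000 bases accompanied 98 members (16.6%). The median distance from the start was 1283 bases, with 210 members up to 1000 bases, 251 over 1000 to 2000 and 129 over 2000 to 3000. The host intron had a median length of 5578 bases.

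At the inner limit, the members nearest to it were those of Btk, Ada2b and CG5854, each at 503 bases, with IDR ranks of 725, 364 and 1879. Just outside it, at 498, 498 and 499 bases, were intronic peaks of CG5445 and Fim, of aru and of CG3638, with ranks of 1685, 649 and 1571. At the outer limit the members of lili (2999 bases), siz (2996) and drn (2965) ranked 1218, 941 and 2285. The peaks just beyond, of CG12991 (3012), CG32066 (3013) and atos (3023), ranked 2541, 2373 and 433. Signals on the 2 sides of each limit overlapped.

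The members were spread over the 5 large chromosome arms. There were 32.0 members per Mb of eligible intron on 2L, 40.1 on 2R, 36.6 on 3L, 42.7 on 3R and 43.5 on X, with 87, 117, 110, 145 and 131 members. The X chromosome, whose copy number Runt helps to read in early embryos, thus had 1.14 times the density of these autosomal arms, with a 95% interval of 0.933 to 1.39 that includes equality. Chromosome 4 held no member in 0.181 Mb, which allows up to 20.4 per Mb, below the lower limits of the other arms (25.6 on 2L to 36.4 on X).

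The members marked 517 host genes, and a few genes held several. These were 5.61% of the 9216 protein-coding genes with eligible sequence. Of them 432 held 1 member, 69 held 2, and 16 held 3 to 8. Hosts were long, with a median of 15736 bases, compared with 3478 for all genes with eligible sequence. The comparison is not weighted by eligible sequence, of which long genes can hold more. In 312 hosts neither a promoter IDR summit nor a far-intron one lay inside the gene span, while 135 had a promoter summit there and 113 a far-intron one. Promoter summits outside the span, such as just upstream of the gene, were not counted. CG11050 and Lk6, for example, have an IDR summit within 500 bases of a start but none counted in their span. These counts therefore do not show how many hosts lack a peak at their starts, and no share over all genes is given here.

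The gene with the most members, CG1677, owed its 8 to the genes inside and beside it. It has an intron of 73902 bases, and the nearest starts of these members belong to Dok, CBP, brk and unc-119. The strongest, in an intron of the nested gene Dok, ranked 181, 122 and 109 in the replicates. A member 773 bases upstream of brk, which encodes Brinker, a repressor of Dpp target genes, ranked 2887, 572 and 403, so replicate 1 placed it far lower than the others did. Tlk held 7 members along its alternative first introns, with IDR ranks from 40 to 1460, and its own starts were the nearest for each. All 7 were matched in all 3 strongest replicate lists.

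CHES-1-like, which encodes a forkhead protein, held 5 members, with IDR ranks of 181, 188, 236, 766 and 2747. The strongest 2 ranked 101, 184 and 244, and 99, 174 and 211 in the replicates. The gene shn, whose zinc-finger product Schnurri acts in Dpp signalling, also held 5. Of these the one ranked 267 had replicate ranks of 348, 234 and 282, while those ranked 898 and 2439 are 199 bases apart and overlap the same replicate peaks. The genes ush, NFAT, sbb and tna held 4 members each. In ush the others ranked 408, 2214 and 2843, far below the first. Summits of sbb at ranks 832 and 1915 and of tna at ranks 1336 and 2831 also shared their replicate peaks, so some neighbouring members are not separate events in single replicates.

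Counts over gene lists are descriptions beside the 5.61% of eligible genes that host a member and the 38.7 members per Mb, since the lists were chosen with earlier results known. Chromatin and Polycomb or trithorax genes stood highest, with 6 of 15 genes, 14 members and 199 per Mb (95% exact Poisson interval 109 to 334). After Trl and Tlk came ph-p, a Polycomb-group gene, whose strongest member ranked 428, 449 and 369. Weaker members lay in psq, which encodes the DNA-binding protein Pipsqueak, in osa, a subunit gene of the Brahma remodelling complex, and in tara. Tlk alone contributed 7 of the 14, and without it, a count added after seeing the data, the density was 154 per Mb (62.1 to 318). Because the genes of this list were chosen with earlier results of these data known, neither density can show that such genes stand out.

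Signalling genes of several pathways held members. In the Dpp list 3 of 10 genes did, with 110 per Mb (44.3 to 227): shn, Mad, the pathway's transducer, and tkv, a receptor. Of the 7 members in the list shn held 5, and without shn, also added after seeing the data, the density was 48.3 per Mb (5.85 to 175). With the shn members that share their replicate peaks counted once it was 94.5 (34.7 to 206), so in both cases the interval includes the value for all genes. The member of Mad ranked 386, 438 and 418, while that of tkv ranked 4072, 2598 and 3451. The Ras and FGF list had 5 of 16 genes, namely the adaptor drk, the FGF ligand gene ths, the inhibitor sty, kay, which encodes Fos, and the ETS repressor aop. Their density of 59.4 per Mb had an interval (19.3 to 139) that includes the value for all genes. The Notch list had neur, mam and fng among 11 genes, at 60.6 per Mb (12.5 to 177), and the JAK/STAT list Ptp61F and Stat92E among 8, at 45.8 (5.55 to 165). The member of neur, a ubiquitin ligase gene of the Notch pathway, ranked 608, 804 and 617.

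Genes of neural and muscle cells also hosted members. Several of these lists hold long genes, and the density per Mb of eligible intron takes that length into account. Of the neuroblast regulators 4 of 11 were hosts, at 102 per Mb (37.6 to 223). The member of brat, a translational repressor that restrains neuroblast growth, ranked 134, 128 and 136. Those of zfh1, grh and insc had IDR ranks of 663, 1030 and 1619. In the neuronal differentiation list ChAT, the acetylcholine-synthesis gene, and Syn were hosts among 14 genes, at 44.1 per Mb (9.09 to 129), and in the axon guidance list fra, a netrin receptor gene, and NetB, a netrin gene, were hosts among 18, at 22.4 (2.71 to 81.0). Of the muscle structure genes 4 of 15 were hosts, led by Msp300, a nuclear-anchorage protein gene, at 435, 158 and 198, and followed by TpnC47D, Zasp52 and Zasp66. The muscle list had 86.0 members per Mb (27.9 to 201). Of the cytoskeleton and adhesion genes 3 of 18 were hosts, namely sick, Moe and kirre, at 35.1 per Mb (12.9 to 76.4). The interval of each of these lists includes the value for all genes.

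Among segmentation genes, for which Runt is best known, none of the 5 pair-rule genes with eligible sequence held a member. Their eligible introns came to only 0.00629 Mb, and 0 members there allow up to 586 per Mb. The segment polarity and the gap and head lists had more eligible intron, 0.0336 and 0.0362 Mb. The segment polarity list had nkd, hh and inv among 13 genes, and the gap and head list nub among 11. Their densities were 89.3 (18.4 to 261) and 27.6 (0.699 to 154) members per Mb, and both intervals include the value for all genes. The member of hh is nearest to the start of another gene, CG31457, and the member of inv ranked 2425, 1017 and 11910, so replicate 3 hardly carried it. Sxl, the switch gene of sex determination that Runt acts on, held 1 member, at 1016, 2154 and 3985, among 10 genes of its list. Abd-B, a homeotic gene, held 2 members, and was the single host of 11 homeotic genes and cofactors. Among ecdysone-linked nuclear receptor and related genes Hr4, EcR, br and Hr3 were hosts among 12, at 38.6 per Mb, close to all genes. Of the 6 GATA and cofactor genes ush alone was a host.

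No member lay in the lists of RUNX genes and partners (5 genes with eligible sequence), mesoderm and heart regulators (15), cytoplasmic ribosomal proteins (51), mitochondrial ribosomal proteins (22) or adult chemoreceptors (136). In that order, 0 members allow up to 345, 47.5, 176, 357 and 78.3 per Mb. Each of these limits is above the density over all genes, so the counts do not show that such genes lack members.

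**Figure D3:**
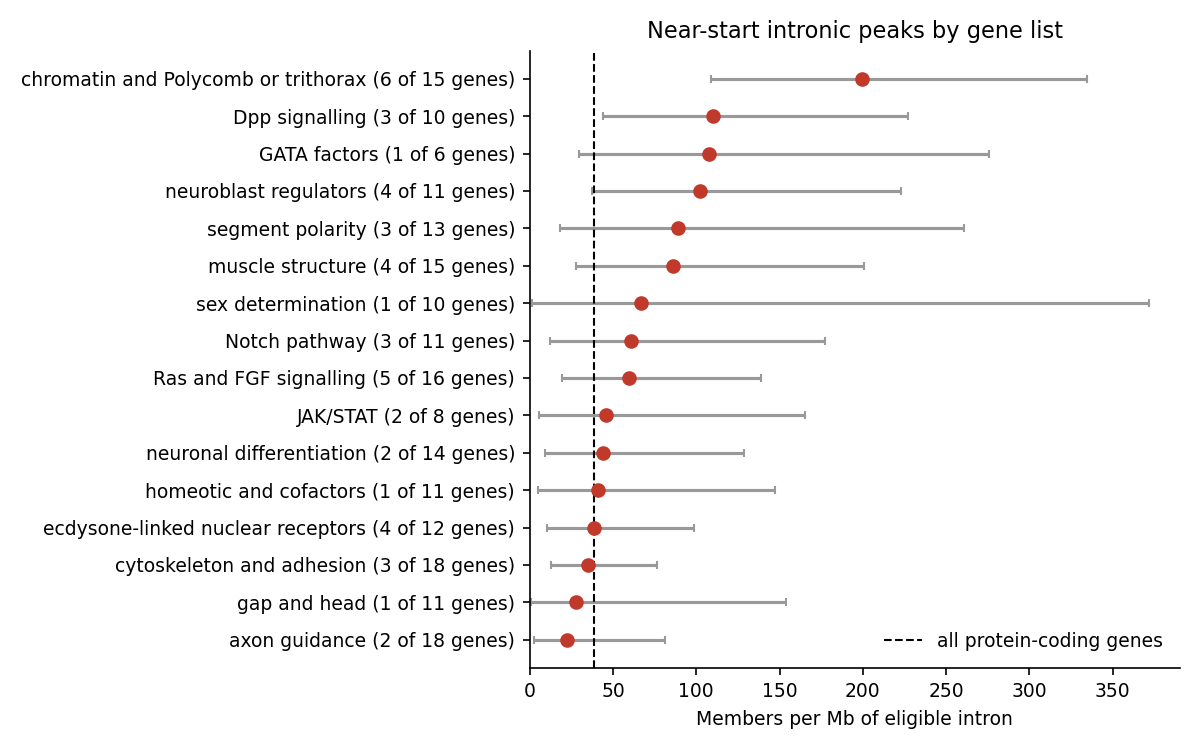
Members per Mb of eligible intron in each gene list with at least 1 member (points), with 95% exact Poisson intervals, and the number of hosts among list genes with eligible sequence. The dashed line is the density over all protein-coding genes, 38.7 per Mb. The intervals of the chromatin and Dpp lists lie above it, the latter only with the shn members that share replicate peaks counted separately. The lists were chosen with earlier results of these data known.

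More members than far-intron or intergenic peaks were strong, while the difference from promoter peaks did not pass. Of the members 53.6% were in the upper part of the IDR ranking, split at its middle, compared with 54.7% of 1280 promoter peaks (exact Fisher adjusted p = 0.653), 43.5% of 616 far-intron peaks (0.000811) and 43.0% of 535 intergenic peaks (0.000811). P-values were two-sided and adjusted over the 3 classes. With the split placed at the strongest 613 peaks, the share of members minus that of promoter peaks was -5.83 percentage points (exact adjusted p = 0.00961). Without replicate 3 the difference from promoter peaks was -5.57 points (exact adjusted p = 0.0545). Without it the differences from far-intron and intergenic peaks were 4.86 and 6.30 points and did not pass (exact adjusted p = 0.0945 and 0.0545).

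Matching in all 3 strongest replicate lists was 62.5% for members, 61.5% for promoter peaks (exact Fisher adjusted p = 0.682), 51.0% for far-intron peaks (0.000179) and 51.2% for intergenic peaks (0.000215). Among peaks in the upper part of the ranking, members were 1.85 points above far-intron peaks and 2.14 points below intergenic peaks, and neither difference passed (exact adjusted p = 0.517 for both). Among the weaker peaks, a comparison added after seeing the data, 28.8% of members were matched in all 3. They were 7.86 points above far-intron peaks (exact adjusted p = 0.0367) and 9.82 points above intergenic peaks (0.0183), while the 5.38 points over promoter peaks did not pass (0.0921).

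The RUNX consensus was more frequent at member summits than beside them. It lay within 50 bases of 51 of 590 summits (8.64%, 95% exact Clopper-Pearson interval 6.50 to 11.2), compared with 28 windows of equal width centred 500 bases away on a randomly drawn side (4.75%, 3.18 to 6.79). The two-sided exact McNemar test gave p = 0.00954, and adjustment over 13 motifs gave 0.124. Over all 15227569 eligible positions 3.97% of such windows hold it. In the replicates' own member lists the shares were 9.06%, 8.81% and 7.25% at summits and 4.19%, 3.45% and 3.71% in flanks. With each flank placed on the side away from the nearest start, an alternative added after seeing the data, the flank share was 2.88% and the exact adjusted p 0.000317. Counted in 50-base bins by offset from the summit, the consensus was in 5.25% of members at -50 to 0 and 4.07% at 0 to 50. In bins beyond 100 bases it was in 1.36% to 3.22%.

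Signal and consensus did not rise together among members. Of the strongest 20 members 1 carried the consensus, that of beat-VII, and of the strongest 100 members 4 did. In 5 groups of 118 members by signal, from the strongest down, the consensus stood at 5.93%, 10.2%, 10.2%, 7.63% and 9.32%, with overlapping intervals. The member of beat-VII, a gene of the Beaten path family of neuronal surface proteins, ranked 145, 116 and 97. Its nearest start, 682 bases away, belongs to another gene, Tb. The members of PAN3, a deadenylation factor gene, and of the RNA-binding protein gene bru2 ranked 313, 687 and 352, and 474, 440 and 800. In CG9663 the member with the consensus (IDR rank 602) stands beside one without it that ranks 57. The same holds for Tlk, where the member with the consensus ranks 789 and one without it 40. In 4 members the window held 2 matches.

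Against the other position classes the members stood between promoters and distal sites in RUNX content. The shares were 6.33% for promoter peaks, 12.01% for far-intron peaks and 14.0% for intergenic peaks. The difference of members from intergenic peaks, -5.37 percentage points, passed (two-sided exact Fisher adjusted p = 0.0135), and those from promoter (2.32 points) and far-intron peaks (-3.37 points) did not (0.0800 for both). Without replicate 1, 2 or 3 the difference from intergenic peaks was -5.13, -4.29 and -3.65 points and no longer passed. Within the members the share was 7.62% up to 1000 bases, 8.37% over 1000 to 2000 and 10.9% over 2000 to 3000, with overlapping intervals.

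**Figure D4:**
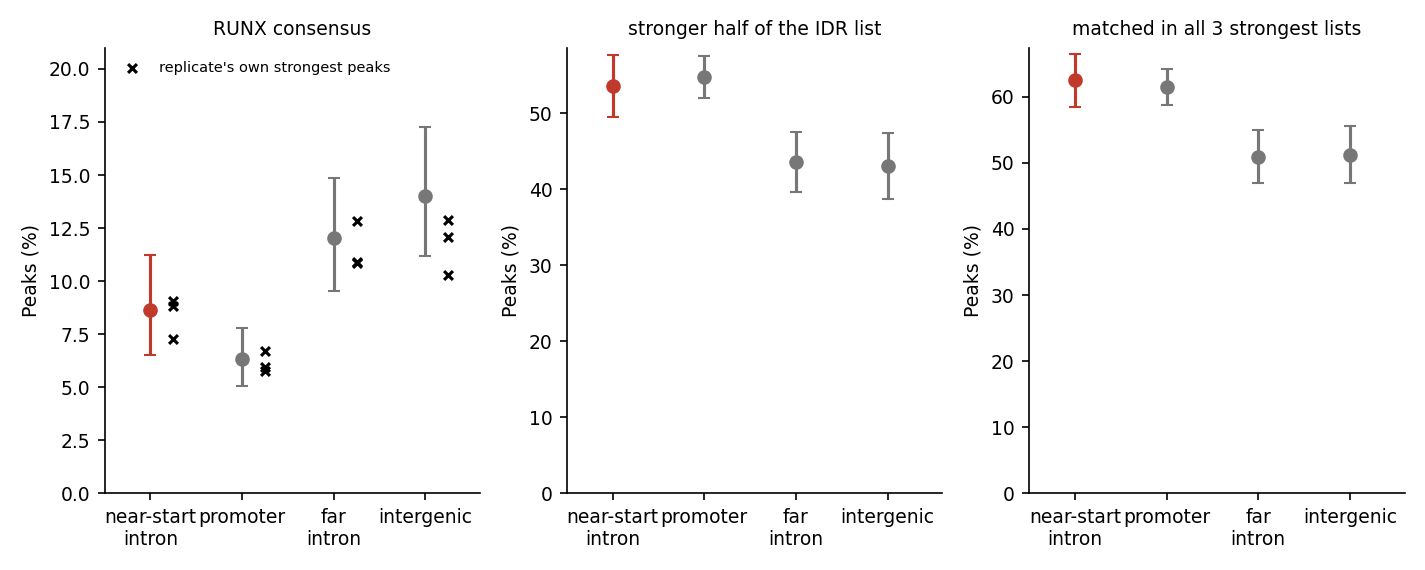
Share (%) of peaks with the RUNX consensus within 50 bases of the summit, in the upper part of the IDR ranking, and matched in all 3 strongest replicate lists, for members (red) and the other position classes (grey). Bars are 95% exact Clopper-Pearson intervals for counting error only, and crosses are the 3 replicates' own strongest peaks. Members lie beside promoter peaks in the middle and right panels.

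No motif of 13 passed the adjusted threshold of 0.05 in exact McNemar tests against flanks (0%), and 2 had an unadjusted p below it, RUNX and Su(H). In the replicates' own lists RUNX passed in replicates 1 and 2 (exact adjusted p = 0.00844 and 0.00318) and missed in replicate 3 (0.0562). The Su(H) sequence of the Notch pathway (GTGNGAA with A or G at N, after a pyrimidine) was at 4 summits and 14 flanks (unadjusted exact p = 0.0309, adjusted 0.201). The homeodomain sequence (TAATTN with A or G at N) was at 18.6% of summits and 17.8% of flanks. The site of GATA factors, GATAAG after A or T, was at 4.41% and 3.73%, and the Mef2 sequence at 6.44% and 3.73%. The Twist and Snail E-box (CANNTG with C or T, then A or G, at the Ns) was at 10.5% and 8.47%, and GAGAGAG of GAGA factor at 2.20% and 3.90%. CAGGTAG of Zelda was at 1 summit and 2 flanks. Few windows held the AP-1 (TGANTCA with C or G at N), ETS (CCGGAAN with A or G at N) or Tramtrack (AGGANAA with C or T at N) sequences, with 3, 3 and 6 summits and 5, 9 and 5 flanks. TATCGATA of DREF and AACCGGTT of Grainyhead were at no summit and 2 flanks each. These sequences were searched on both strands. The consensus of RUNX shared a window with GATA in 2 members and with the homeodomain sequence in 10, and 421 members held none of these 3.

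Member summits were rich in A and T. Summit windows had a GC content of 33.0% ± 9.42 (SD over 590 peaks), flank windows 41.6% ± 9.92, and all eligible bases 38.8%. Unlike summits, flank windows can fall in exons or within 500 bases of a start. The summit was below its own flank in 437 members (74.1%). Mean GC content was 32.4% in the bins of 25 bases on either side of the summit and 45.1% at 200 to 225 bases after it. Promoter, far-intron and intergenic summits had 33.7%, 34.5% and 36.7%, so the other classes showed the dip too. Within the members GC content went with signal: the 20 strongest had a median of 29.2%. In the 5 groups of 118 members from the strongest down the means were 29.5%, 31.2%, 32.6%, 35.7% and 35.9%, with SDs of 7.70 to 10.6. Whether base composition acts on the signal through the assay was not tested.

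**Figure D5:**
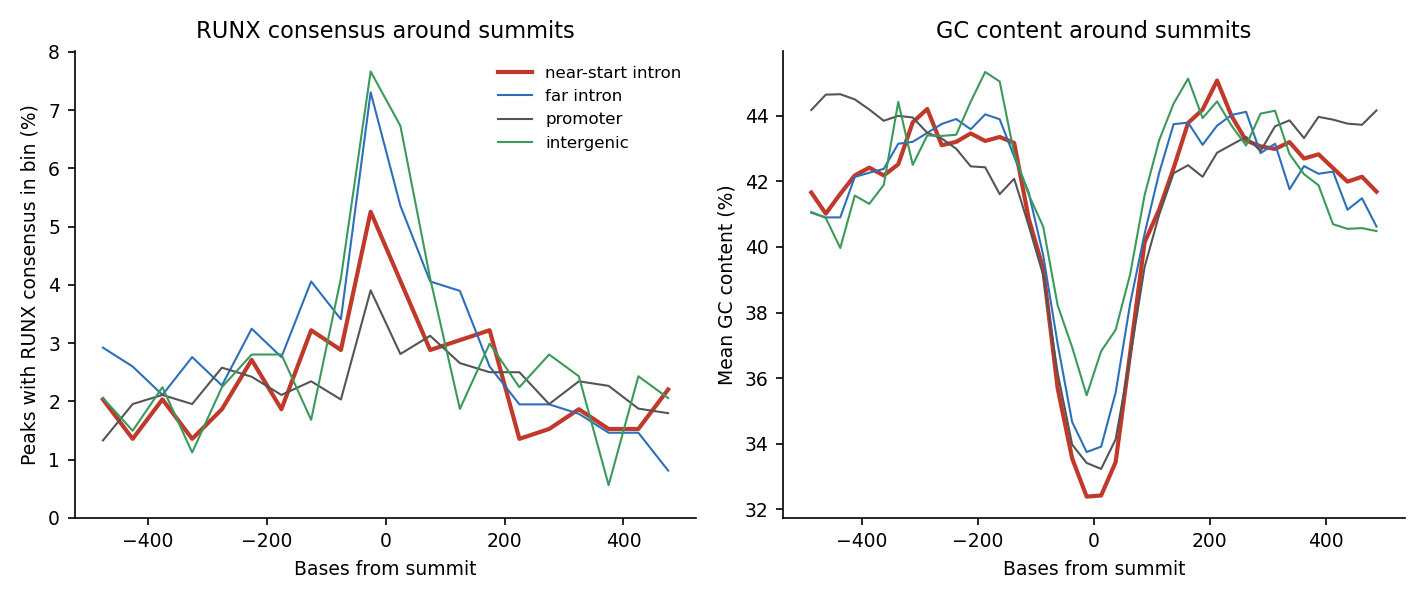
Left, share (%) of peaks with the RUNX consensus in bins of 50 bases around the summit. Right, mean GC content (%) in bins of 25 bases. Lines are the members (thick red) and the other position classes. For members the consensus peaks at 5.25% and GC content dips to 32.4% at the summit.

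The search with no preset motif took every six-base sequence, each counted together with its reverse complement. Of them 102 (4.9%) were more frequent at member summits and 100 (4.81%) in their flanks (adjusted p below 0.05, two-sided exact McNemar tests with Benjamini-Hochberg adjustment over all of them). TTAAAA led, in 33.9% of summits and 14.2% of flanks (exact McNemar adjusted p = 3.28e-11). TAAATA followed at 31.4% and 12.9%, then AAATAT at 33.7% and 16.1%, ATATAT at 16.1% and 4.24% and ATTTTA at 30.0% and 13.4%. The next were AATAAT at 25.3% and 10.5%, ATATTA at 21.9% and 8.64%, ATTAAA at 29.5% and 14.4%, ATAATA at 22.4% and 9.32% and AATATT at 19.7% and 7.63%, so that the leading 10 held no G or C. Of the 36 sequences made of A and T alone 33 were called at summits and none in flanks. Of the sequences called in flanks 96 of 100 held at least 3 G or C, and of those called at summits 2 of 102 did. Flank windows, unlike summits, were not confined to introns or to the distance limits. The part of this in the calls was not tested. The RUNX core TGTGGT was at 54 summits and 24 flanks (exact adjusted p = 0.0129), which placed it 63 among the sequences higher at summits. GTGGTT was 89 in that order (exact adjusted p = 0.0386). TGCGGT, the other form of the core, was at 28 summits and 18 flanks and did not pass (0.435).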

How the data were processed

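Runt-GFP ChIP-seq peaks of 3 biological replicates were analysed. Per the readme files, the authors called peaks on each replicate and on the pooled replicates against 1 shared control and derived the IDR list from them. Aligner, caller and threshold were not given in the sources used here. Deposited signal values served only for ranks inside 1 list. The deposited −log10 q-value had a single value in the IDR list and was not used further. Summits were taken from the deposited offset in bases, another unit of the authors' files. Samples were grouped by the labels, and no deposited count or depth was used.

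Gene models were Ensembl release 115 (BDGP6.54), and sequences came from RefSeq Release 6, the sequence of dm6. Coordinates are 1-based. The tools were scipy 1.17.1, pandas 2.3.3, numpy 2.4.6, matplotlib 3.10.9 and Python 3.11.15, and tests were checked on simulated data. A first intron is that of any protein-coding transcript. Peaks overlapping by at least 1 base were matched. P-values over peaks treat peaks as units, and intervals cover counting error only. Every listed gene was matched, some through synonyms.

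The members, gene lists, motifs and tests were chosen with earlier results of these data known. Named genes are hosts of the 20 strongest members, hosts with the most members, up to 3 hosts per list with the strongest member, and members nearest to the distance limits; further hosts of a list are named where few remained. Alternatives changed the distance limits, window, flank, consensus, gene models, overlap and peak list, or left out 1 replicate.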

Additional observations from a re-analysis of the deposited data

How the results depend on the processing

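Of 169 values under 19 alternatives, 130 kept direction and side of the threshold, among them every value for the density ratio (1.93 to 2.90), the first-intron excess (18.3 to 22.3 percentage points) and the RUNX excess over flanks by its unadjusted exact p (2.54 to 6.44 points, highest p 0.0489). Adjusted over the 13 motifs, that excess did not pass as reported (exact p = 0.124) but passed under the alternatives named RUNX with the motif counts. For the others the cause was not tested, though alternatives with fewer peaks also test fewer. The RUNX difference from intergenic peaks no longer passed with the inner limit raised to 1000 bases (-4.81 points), in replicates 1 and 2 alone (-3.03 and -1.46), in the stronger part of the list (-3.00), with windows of 25 bases (-2.68) or without 1 replicate (-5.13 to -3.65). That from far-intron peaks passed with the outer limit at 5000 bases (-3.95), in replicate 3 alone (-5.59) and with windows of 100 (-5.12) or 25 bases (-4.53). That from promoter peaks passed with the 6-base core (3.39), the outer limit at 5000 bases (2.67), replicate 1 alone (3.31) and 6130 pooled peaks (2.37). The downstream share minus that of eligible bases turned positive with gene models of every biotype (0.42) and with the inner limit raised to 1000 bases (0.305), and was -4.81 to -2.13 points without 1 replicate, passing only without replicate 3. In the stronger part of the list the differences in matching were 1.85 (far introns), -2.14 (intergenic) and -1.23 points (promoters), and the last was -0.958 and -1.28 with limits of 1000 and 5000 bases. Without 1 replicate the strength differences were 4.86 to 10.9 points from far-intron and 6.30 to 8.58 points from intergenic peaks. With the split at the strongest 613 peaks the difference from promoters was -5.83 points. The count of motifs past the threshold was 1 with flanks away from the start, every biotype, the outer limit at 5000 bases (RUNX in each) and replicates 2 (RUNX) and 3 (Mef2) alone, and 2 in replicate 1 (RUNX and Mef2) and in 6130 pooled peaks (RUNX and Su(H)). Six-base sequences at summits numbered 28 and 156 with limits of 1000 and 5000 bases, 67 and 56 in replicates 1 and 2, and 42 with windows of 25 bases. For sequence and position results, leaving out a replicate kept only IDR peaks matched in the other 2, so these lists are shorter. For strength and matching all IDR peaks were kept. Strength was then ranked by the sum of ranks in the other 2 replicates instead of pooled signal, and matching was asked in those 2. The replicates share 1 control. Depth is unknown. No paired analysis was possible because there is 1 group.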

Other observations

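Some members that are intronic by protein-coding models lay at non-coding genes. The summit was in a non-coding exon for 14 members (2.37%) and within 500 bases of a non-coding start for 20 (3.39%). Examples, chosen after their values were seen, are the member of bun, a gene of the TSC-22 family, in lncRNA:CR42746 (ranks 476, 607 and 779 in replicates 1, 2 and 3) and that of kay in lncRNA:CR46110 (5276, 2448 and 2282). The weakest member of Tlk lay in the exon of mir-4962, a microRNA gene, and ranked 1452, 1121 and 2762. In Mapmodulin a pair of members, at IDR ranks 1528 and 1834, lay in the same non-coding gene, lncRNA:CR44417, and overlapped the same replicate peaks. A single member, in aux at rank 1999, had its summit in an annotated transposable element.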
